A study of Nasonia vitripennis x Nasonia giraulti with 2 samples.

Results

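Solitary highly methylated CpGs were CpGs at which at least 50% of the reads were methylated although none of their listed neighbors reached 10%. They were selected on the measured methylation level itself. A CpG had to be listed in both F1 libraries, to have a pooled total level of at least 50% (methylated reads of all reads, summed over both libraries), and to have at least 5 other shared CpGs within 1000 bp on its scaffold, none of them at a pooled level of 10% or more. There were 89 such CpGs among the 5531492 CpGs shared by the libraries. They made up 0.238% of the 37419 CpGs that met the level and the minimum number of neighbors, and the remaining 37330 of these are called the other highly methylated CpGs here.

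In insects with a DNA methylation system, including Hymenoptera, methylation is found almost entirely at CpG dinucleotides and mainly within transcribed genes, where methylated CpGs lie next to each other in runs. DNA methyltransferases of the Dnmt1 type copy the pattern of CpG methylation onto newly made DNA strands, while those of the Dnmt3 type are known for adding methylation to unmethylated DNA. A methylated CpG surrounded by unmethylated CpGs therefore departs from the usual clustered pattern.

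The data were whole-genome bisulfite sequencing (WGBS-seq) of 2 libraries, 1 for each reciprocal cross of the parasitoid wasps Nasonia vitripennis (Nv, strain AsymCX) and Nasonia giraulti (Ng, strain R16A). In F1VG the mother was Nv and the father Ng, and in F1GV the species of the parents were exchanged. Each library came from the whole bodies of a pool of 50 adult females collected 24 h after eclosion, so that tissues and individuals were mixed. Bisulfite converts an unmethylated cytosine, which is then read as T, and leaves a methylated one as C, and reads with an informative difference between the species were assigned to the V (Nv) or the G (Ng) allele.

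With 1 library per cross no value has a replicate error. A test of V against G compared the reads of both alleles within a library, and in a test between the crosses an effect of the cross cannot be told apart from a difference between the 2 libraries. Intervals are 95% Wilson intervals and cover counting error only, because copies made by PCR are not independent molecules. A library listed a CpG only with at least 8 V and 8 G reads, so the neighbors are the listed CpGs and not all CpGs of the genome. Summed over the listed CpGs, with a read counted at every CpG it covers, F1VG had 286833473 counts and a median of 47 reads per CpG, and F1GV had 371795018 counts and a median of 55.

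The solitary CpGs were less deeply covered and less highly methylated than the other highly methylated CpGs. Their pooled total level had a median of 71.4% (quartiles 58.4 and 86.8, range 50.5 to 98.4), against 81.9% for the other highly methylated CpGs. This is a description, since the level chose the members. Of the 89, 26 lay between 50% and 60%, 34 reached 80% and 13 reached 90%. They had a median of 95 pooled reads (range 51 to 181), compared with 120 for the other highly methylated CpGs and 106 for all shared CpGs. In 59 of the 89 (66.3%) the pooled depth was below the median of all shared CpGs, as it was in 34.6% of the other highly methylated CpGs, and none exceeded 2 times that median.

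The most methylated solitary CpG, at position 433888 of SCAFFOLD135, had a pooled level of 98.4% (interval 91.3 to 99.7) over 61 reads. In F1VG its V allele had 10 methylated reads of 10 and its G allele 8 of 8, and in F1GV the V allele had 13 of 13 and the G allele 17 of 18. All 35 of its listed neighbors lay on 1 side, the nearest at 493 bp, and their pooled level was 1.33%. SCAFFOLD47 position 368700 followed at 95.9% (90.8 to 98.2) over 122 reads, with 93.8% on V and 92.6% on G in F1VG and 100% on V and 93.8% on G in F1GV. Here too the 7 listed neighbors were on 1 side, the nearest at 561 bp. SCAFFOLD31 position 227897 also stood at 95.9% (88.6 to 98.6), over 73 reads, and every V read at it was methylated in both libraries, 18 of 18 in F1VG and 11 of 11 in F1GV. Each of these sites was methylated on both alleles in both crosses, and each stood far from its nearest listed CpG.

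The deepest solitary CpGs were of middling level. SCAFFOLD28 position 911528 had 181 reads and a level of 54.1% (46.9 to 61.2), SCAFFOLD42 position 1204169 had 163 reads and 62.6% (54.9 to 69.6), and SCAFFOLD5 position 2276171 had 158 reads and 66.5% (58.8 to 73.3). At the level limit, the members just inside were SCAFFOLD135 position 280374 at 50.5% and SCAFFOLD10 position 627576 at 50.6%, and the candidates just outside were SCAFFOLD35 position 1529068 at 49.3% and SCAFFOLD135 position 113976 at 49.1%. The interval of each of these 4 sites spanned 50%. At the limit on neighbors, the members whose highest neighbor came closest to 10% were SCAFFOLD7 position 692000 (9.93%) and SCAFFOLD3 position 827142 (9.87%), and SCAFFOLD19 position 773116 (10%) and SCAFFOLD18 position 3168202 (10.3%) were just outside.

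The surroundings of the solitary CpGs were sparsely listed. They had a median of 16 listed CpGs within 1000 bp (range 5 to 79), against 26 around the other highly methylated CpGs and 84 around all shared CpGs. The nearest listed CpG was a median of 246 bp away (range 23 to 862), against 26 bp for the other highly methylated CpGs and 5 bp for all shared CpGs. Of the 89, 46 (51.7%) had no listed CpG within 1000 bp on 1 side, compared with 2.31% of the other highly methylated CpGs. In 23 of the 46 the next listed CpG on the empty side had a level of 10% or more. At least 5 listed CpGs on each side were present at 22 of the 89, and a listed CpG within 100 bp, about the length of a read, at 24 (27.0%, against 88.6% of the other highly methylated CpGs). In 4 this held on both sides. The description as solitary therefore rested on distant neighbors at most of these sites.

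By the rule no neighbor could reach 10%, and over all 1737 neighbors 1.98% of the reads were methylated, against 1.67% over all shared CpGs below 10%. The highest neighbor of a solitary CpG had a median level of 5.79%. By distance, the pooled level was 4.49% up to 25 bp, from 2 neighbors only, 3.14% from there to 50 bp, 3.94% to 100 bp, 2.49% to 200 bp, 2.11% to 500 bp and 1.83% to 1000 bp. Around a regular sample of CpGs below 10% with no neighbor at 10% it was between 1.62% and 1.64% in every bin, so the neighbors within 100 bp of a solitary CpG lay at higher levels and those farther away lay nearer to it. Around the other highly methylated CpGs it was 74.7% in the nearest of these bins and 16.2% in the farthest.

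**Figure D1:**
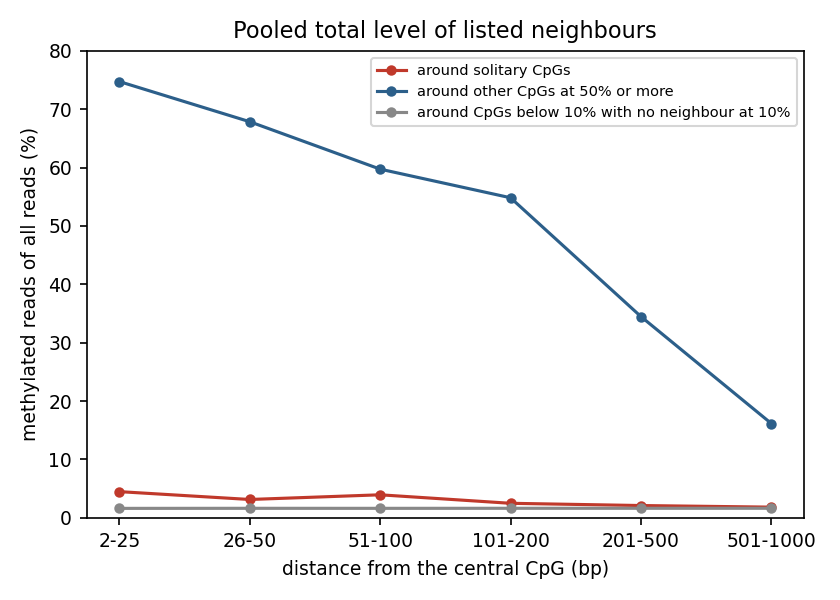
Percent of reads methylated at listed neighbors (y axis) by their distance from the central CpG in bp (x axis), pooled over both libraries, around the 89 solitary CpGs, around the 37330 other highly methylated CpGs, and around a regular sample of CpGs below 10% with no neighbor at 10% or more. Levels around the other highly methylated CpGs fell from 74.7% to 16.2% with distance, whereas those around solitary CpGs, which the rule holds below 10%, lay between 1.83% and 4.49%.

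Outside the window, methylated CpGs were often not far away. The next shared CpG at 10% or more was a median of 1596.5 bp from a solitary CpG. It lay within 2000 bp of 58 of the 89 (65.2%) and within 5000 bp of 83 (93.3%), whereas among CpGs below 10% whose own window held no CpG at 10% it lay within 2000 bp of 9.9% and within 5000 bp of 32.6%. Chosen after their values were seen, SCAFFOLD234 position 178881, 33324 bp from the next such CpG, and SCAFFOLD13 position 2633279, 18194 bp from it, were the most isolated. At SCAFFOLD234 position 178881 the level was 64.3% in each library, with 18 methylated reads of 28 in F1VG and 36 of 56 in F1GV.

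The number of sites depended strongly on which neighbors were counted. Counting CpGs listed in only 1 of the files as neighbors, with their level there, left 26 sites, 24 of them among the 89. Of the 89, 62 had a neighbor at 10% or more that was listed only in F1GV, and 12 had one listed only in F1VG. Of the neighbors listed only in F1GV, 148 of 527 reached 10%, and of those listed only in F1VG, 15 of 85. Each such level rests on 1 library, and the share of all CpGs listed in 1 file that reached 10% was not computed. Requiring the limits in each library separately gave 38 sites. For 65 of the 89 the absence of methylated neighbors was thus a property of the CpGs listed in both libraries.

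The sites with the most listed neighbors were the best surveyed by number of CpGs. SCAFFOLD1 position 2133988 had 79 listed neighbors with a pooled level of 1.63%, 20 on one side (nearest at 765 bp) and 59 on the other (nearest at 116 bp). Its own level was 90.3% (83.4 to 94.5) over 113 reads, and in F1VG 41 of 43 V reads and 8 of 9 G reads were methylated, as were 33 of 36 V reads and 20 of 25 G reads in F1GV. SCAFFOLD286 position 142307 had 52 listed neighbors at a pooled 1.83% and a level of 81.5% (74.0 to 87.3), with 64.7% on V and 94.4% on G in F1VG and 90% on V and 75% on G in F1GV, and the alleles did not differ past the threshold in either library (Fisher's exact test, adjusted p = 0.108 and 0.67). The nearest listed CpG to SCAFFOLD286 position 142307 was 141 bp away. SCAFFOLD38 position 1288176, with 60 listed neighbors, the nearest at 53 bp, differed between the alleles and is described with the interaction below.

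The solitary CpGs were scattered over the genome. They lay on 50 of the 2683 scaffolds with shared CpGs, 25 scaffolds holding 1, 17 holding 2 and 8 holding 3 or more. SCAFFOLD1 and SCAFFOLD7 held 5 each, and SCAFFOLD3 and SCAFFOLD31 held 4 each. Per 100000 shared CpGs of the scaffold these were 1.60, 4.03, 2.02 and 6.18, respectively. Over all scaffolds there were 1.61 per 100000 shared CpGs. The scaffolds numbered 1 to 50 held 72 of the 89 (80.9%), near the 81.3% of the other highly methylated CpGs that they held, and 75% of all shared CpGs. The closest pair on a scaffold was 1136 bp apart, the median distance between successive sites was 507191 bp, and 3 pairs lay within 10000 bp.

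Most solitary CpGs were methylated on both alleles. The V and G reads are among the reads whose total level chose the members, so these levels are a description. In F1VG the V allele had a median level of 77.8% (range 0 to 100) and the G allele 82.4% (0 to 100), and in F1GV the V allele had 79.3% (0 to 100) and the G allele 76.5% (0 to 100). The medians for the other highly methylated CpGs were 85.7% and 85.2% in F1VG and 84.6% and 82.4% in F1GV. Median allele depth at the solitary CpGs was 15 V and 15 G reads in F1VG and 22 V and 20 G reads in F1GV. Reads not assigned to an allele are left out of these levels. Their median share was 13.6% in F1VG and 15.9% in F1GV, against 13.0% and 13.9% at the other highly methylated CpGs. At solitary CpGs with a listed CpG within 100 bp it was 22.9% and 29.4%, and at those without 10.3% and 15.4%. Both alleles reached 50% at 64 of the 89 in F1VG and at 65 in F1GV, and all 4 allele levels did so at 51 (57.3%), against 79.5% of the other highly methylated CpGs. All 4 reached 80% at 18 (20.2%, against 32.4%). In F1VG only the V allele reached 50% at 10 sites and only the G allele at 12, and in F1GV only V did at 12 and only G at 10.

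The absolute difference between the alleles had a median of 15.1 percentage points in F1VG and 14.4 in F1GV, against 10.6 and 9.62 for the other highly methylated CpGs, whose alleles were more deeply covered. V minus G had the same sign in both libraries at 47 sites and opposite signs at 35. The difference was tested at each of the 89 in each library with a two-sided Fisher's exact test, adjusted by the Benjamini-Hochberg method over all 72225 shared CpGs with a pooled allele level of at least 10%, and a site was called at an adjusted p below 0.05. Of the CpGs tested, 15.4% were called in F1VG and 18.1% in F1GV, and 7 solitary CpGs were called in F1VG and 12 in F1GV. The shares among the solitary CpGs were 7.87% and 13.5%, both below the background over all tested CpGs, and among the other highly methylated CpGs they were 8.16% and 8.52%. Of the 7 calls in F1VG, 2 had V higher (2.25% of the 89, background 10%) and 5 had G higher (5.62%, background 5.40%). Of the 12 in F1GV, 6 had V higher (6.74%, background 13.1%) and 6 had G higher (6.74%, background 4.97%). In either library 16 sites were called (18.0%, background 25.2%), against 13.4% of the other highly methylated CpGs. In both libraries with the same allele higher 3 were called (3.37%, background 8.09%), against 3.19% of the other highly methylated CpGs. The reading against the background turned with the level filter. With all 5531492 shared CpGs tested, 3 solitary CpGs (3.37%) were called in F1VG and 7 (7.87%) in F1GV. These shares were above the backgrounds of 0.0885% and 0.123% in that set. However, 5463681 of its CpGs had a pooled total below 10%, unlike any member, so this comparison is not like with like.

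**Figure D2:**
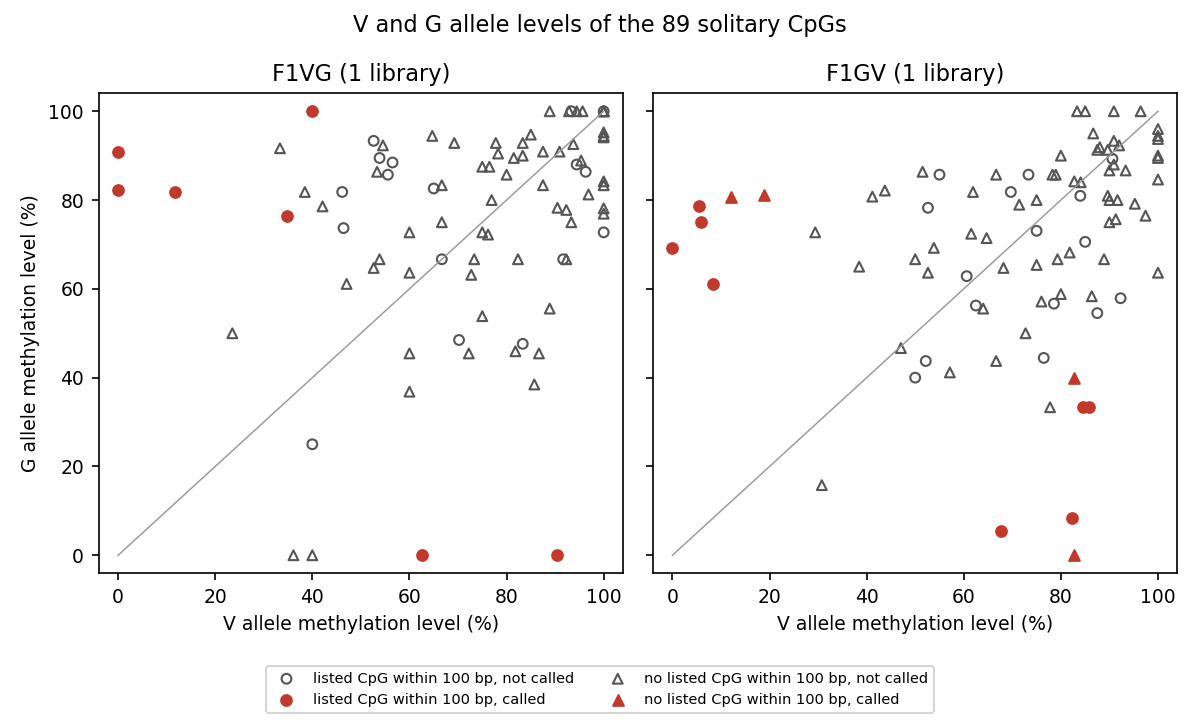
Methylation level of the V allele (x axis, %) against the G allele (y axis, %) at the 89 solitary CpGs in F1VG and F1GV, 1 library each, with called sites filled (adjusted p below 0.05) and the diagonal marking equal levels. Circles are the 24 sites with a listed CpG within 100 bp and triangles the other 65. The 7 sites called in F1VG are all circles, and 8 of the 12 called in F1GV are.

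Sites whose alleles were called different in both libraries had the same allele higher in both crosses. At SCAFFOLD10 position 627576, F1VG had 19 methylated V reads of 21 and 0 methylated G reads of 14, and F1GV had 23 of 34 and 1 of 18. The V allele was at 90.5% and 67.6% in the 2 libraries and the G allele at 0% (up to 21.5%) and 5.56%, and their intervals did not overlap in either library (Fisher's exact test, adjusted p = 1.96e-06 and 0.000233). At SCAFFOLD7 position 2095165, F1VG had 20 methylated V reads of 32 and 0 methylated G reads of 21, and F1GV had 30 of 35 and 7 of 21. V was higher in both libraries, by 62.5 percentage points in F1VG and 52.4 in F1GV (Fisher's exact test, adjusted p = 3.05e-05 and 0.00106). At SCAFFOLD135 position 280374 the G allele was the higher one. F1VG had 4 methylated V reads of 10 and 12 methylated G reads of 12, and F1GV had 1 of 18 and 11 of 14 (Fisher's exact test, adjusted p = 0.0223 and 0.000342). All 3 had pooled levels near the 50% limit, between 50.5% and 52.7%, and the nearest listed CpG was 46, 63 and 29 bp away, respectively. When p-values were adjusted over all 5531492 shared CpGs instead, the calls at SCAFFOLD7 position 2095165 in F1GV and SCAFFOLD135 position 280374 in F1VG were lost (Fisher's exact test, adjusted p = 0.0803 and 1).

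The next sites by this ordering were called in at most 1 library. SCAFFOLD6 position 55436 had G higher, with 52.6% on V and 93.3% on G in F1VG and 5.88% on V and 75% on G in F1GV (Fisher's exact test, adjusted p = 0.105 and 0.000635). SCAFFOLD66 position 137532 had V at 100% and 97.4% and G at 76.9% and 76.5%, and neither difference passed (Fisher's exact test, adjusted p = 0.145 and 0.116). SCAFFOLD5 position 3128610 had V at 38.5% and 43.8% and G at 81.8% and 82.1%, likewise not called (Fisher's exact test, adjusted p = 0.12 and 0.0831). The deepest site, SCAFFOLD28 position 911528, was called in F1GV only. There 10 of 53 V reads and 30 of 37 G reads were methylated, against 26 of 39 and 20 of 24 in F1VG (Fisher's exact test, adjusted p = 1.72e-07 and 0.547). Its interaction was not called (adjusted p = 0.172, with an unadjusted p of 0.027 by Zelen's exact test).

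The calls lay mainly at middling levels and near a listed CpG. The level chose the members and also bounds the difference between the alleles, since a site methylated on 1 allele lies near 50% and a site near 100% leaves little room for a difference, so the split by level is a description. Of the 26 solitary CpGs at 50% to 60%, 14 (53.8%) were called in either library, and of the 63 at 60% or more, 2 (3.17%) were. The same shares of the other highly methylated CpGs were 40.9% and 9.53%. Splitting the 89 at 100 bp to the nearest listed CpG was a choice made after the calls were seen, so it is described without a test. The 24 sites with a listed CpG within 100 bp had a median level of 58.6% and 12 of them (50.0%) were called in either library, and the 65 without had a median of 74.1% and 4 (6.15%) were called. For the other highly methylated CpGs these shares were 13.9% within 100 bp and 9.25% beyond it. Level and distance moved together in the solitary CpGs, and the part of each in the calls was not tested.

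**Figure D3:**
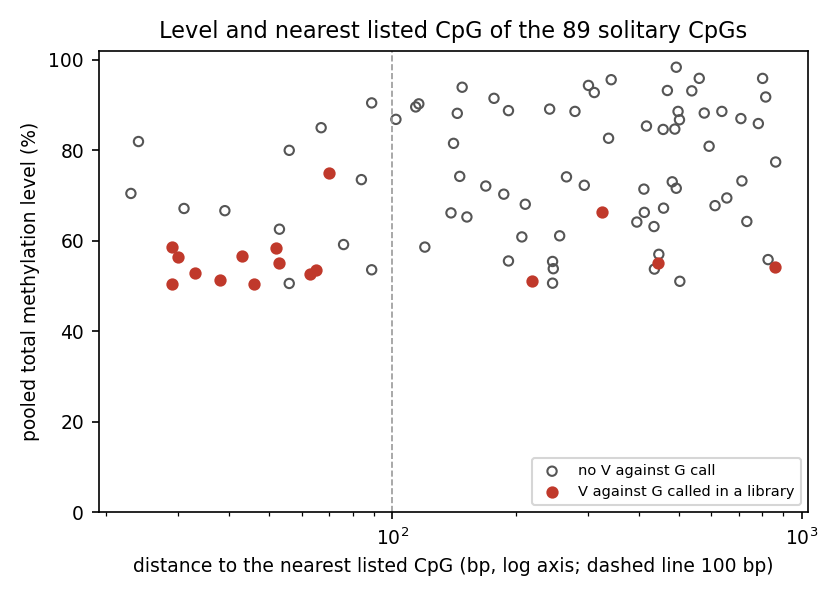
Pooled total methylation level (y axis, %) of the 89 solitary CpGs against the distance to the nearest listed CpG (x axis, bp, log scale), with sites filled where V and G were called different in at least 1 library and a dashed line at 100 bp. Of the 16 filled points, 12 lie within 100 bp and 14 lie between 50% and 60%.

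Whether the difference between the alleles changed with the cross was tested as an interaction of allele and cross (likelihood ratio test), adjusted over the same 72225 CpGs. It was called at 5 solitary CpGs (5.62%), against a background of 4.73% and 3.18% of the other highly methylated CpGs. Zelen's exact test, which compares the odds ratios of both libraries, was added at these sites after the first values were seen. All 5 lay between 50% and 60% and had a listed CpG within 100 bp. They were 19.2% of the 26 solitary CpGs at these levels, against 6.93% of the other highly methylated CpGs there. Of the 24 with a listed CpG within 100 bp they were 20.8%, against 3.28% of such other highly methylated CpGs. Both splits are described without a test. At SCAFFOLD27 position 486782, 0 of 9 V reads and 10 of 11 G reads were methylated in F1VG, and 12 of 13 V reads and 11 of 19 G reads in F1GV (adjusted p = 0.000146, Zelen's exact test unadjusted p = 1.66e-05). The V allele thus went from 0% (up to 29.9%) in F1VG to 92.3% (66.7 to 98.6) in F1GV. The G allele went from 90.9% to 57.9%. These levels leave out the unassigned reads, as the site had 43 reads in all in F1VG and 63 in F1GV. At SCAFFOLD47 position 881915, 2 of 17 V and 9 of 11 G reads were methylated in F1VG and 13 of 17 V and 12 of 27 G reads in F1GV (adjusted p = 0.00168, exact p = 6.79e-05). At SCAFFOLD14 position 1404474, 6 of 13 V and 9 of 11 G reads were methylated in F1VG, and 14 of 17 V and 1 of 12 G reads in F1GV (adjusted p = 0.00255, exact p = 0.000245). At these 3 sites, chosen by the smallest interaction p, the paternally inherited allele had the higher level in each cross, G in F1VG and V in F1GV. In 1 library of each the alleles were not called different. These were F1GV at SCAFFOLD27 and SCAFFOLD47 and F1VG at SCAFFOLD14 (Fisher's exact test, adjusted p = 0.192, 0.221 and 0.327).

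The other two sites had a different form. At SCAFFOLD38 position 1288176, 0 of 13 V and 14 of 17 G reads were methylated in F1VG, whereas the alleles had nearly equal levels in F1GV, 6 of 8 and 19 of 26 (adjusted p = 0.0104, exact p = 0.00203). At SCAFFOLD10 position 2753454 the V allele was methylated in 9 of 9 reads from F1VG but in 1 of 12 from F1GV, while G had 8 of 11 and 11 of 18 (adjusted p = 0.0301, exact p = 0.00835). At the latter the higher allele was V in F1VG and G in F1GV, the maternally inherited one in each. None of the 5 was called for V against G in both libraries, the allele depths ran from 8 to 27 reads, and no second library of either cross was there to repeat them. With adjustment over all shared CpGs the interaction was called at 1 solitary CpG (1.12%, background 0.00842%). Most CpGs of that set had a pooled total below 10%, so these shares are not like with like. A z test of the same change called 13 (14.6%, background 14.3%), or 8 (8.99%, background 6.90%) with 1 methylated and 1 unmethylated read added to each allele, a form chosen after the first count was seen.

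The total level, over all reads including those not assigned to an allele, was compared between F1VG and F1GV with a two-sided Fisher's exact test adjusted over the 67810 shared CpGs that had more than 10 reads per library and reached a pooled total of 10%. The total reached 50% in both libraries at 70 of the 89. It was called different at 13 (14.6%), against a background of 10% and 4.81% of the other highly methylated CpGs. Of the 13, 9 were higher in F1VG (10.1% of the 89, background 4.61%) and 4 in F1GV (4.49%, background 5.40%). The absolute difference between the libraries had a median of 8.12 percentage points, against 6.11 for the other highly methylated CpGs. Adjusted over all shared CpGs, 2 solitary CpGs (2.25%) were called, against 0.0313% of the CpGs in that larger set. Most of its CpGs had a pooled total below 10%, so here too the shares are not like with like.

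At SCAFFOLD31 position 587939, 34 of 40 reads were methylated in F1VG and 18 of 49 in F1GV (85.0% and 36.7%, Fisher's exact test, adjusted p = 0.00022). The larger change was on the V allele, from 14 of 15 reads to 0 of 16, while the G allele went from 16 of 16 to 18 of 26. With every G read methylated in F1VG and no V read methylated in F1GV, the odds ratios of both libraries sit at their limit and the interaction test cannot register this change. At SCAFFOLD200 position 25348, 13 of 44 reads were methylated in F1VG and 47 of 65 in F1GV (29.5% and 72.3%, Fisher's exact test, adjusted p = 0.000553). All methylated reads that were assigned to the alleles were on V, 13 of 36 in F1VG and 38 of 46 in F1GV. None of the 8 and 10 G reads was methylated, so the interaction test cannot register the change at this site either. Such sites stayed among the CpGs tested for the interaction, and their number was not counted. At SCAFFOLD6 position 55436, 43 of 55 reads were methylated in F1VG and 27 of 69 in F1GV (78.2% and 39.1%, Fisher's exact test, adjusted p = 0.000812), with V falling from 52.6% to 5.88% and G from 93.3% to 75%. Of the 89, 22 had at least 1 call in any of these tests and 67 had none. The share of all tested CpGs with any such call was not computed, so the 22 have no background. V against G in either library, by itself, had a background of 25.2%.

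**Figure D4:**
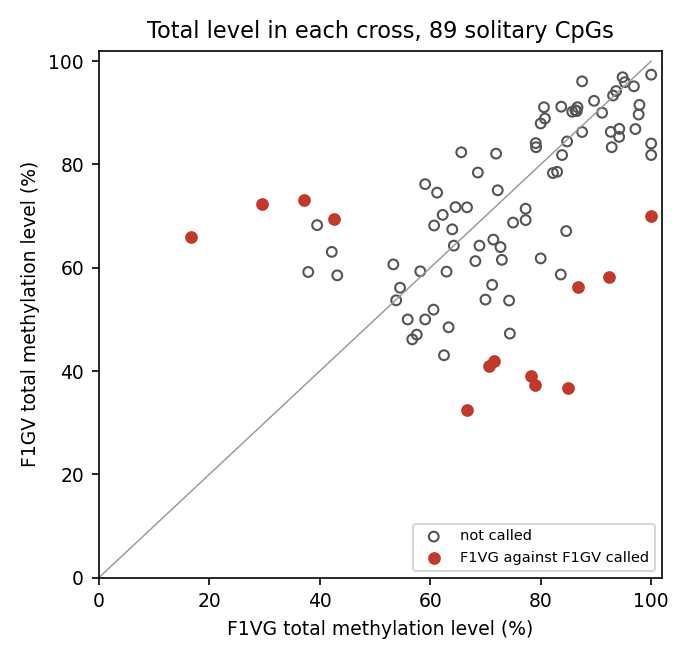
Total methylation level in F1VG (x axis, %) against F1GV (y axis, %) for the 89 solitary CpGs, with sites called different between the 2 libraries filled and the diagonal marking equal levels. Of the 13 filled points, 9 lie below the diagonal (F1VG higher) and 4 above it.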

How the data were processed

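After trimming, the authors used BWA (version not given in the sources used here) to align single-end reads to converted Nv and Ng v1.0 genomes and kept unique alignments. The deposited values are raw read counts per CpG, methylated and unmethylated, for all, V and G reads. Positions are as deposited on Nv v1.0 scaffolds, and whether they count from 0 or 1 is not stated. No annotation or sequence of that build was used, so sites carry no gene names and no bases. The paper mentions a correction of reference bias, and its effect here is unknown.

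Levels, intervals and tests were computed in Numba 0.67.0 and SciPy 1.17.1 (Python 3.11.15, pandas 2.3.3, NumPy 2.4.6), with figures by Matplotlib 3.10.9, and were checked on simulated data. The tests are named where their results are given. Named CpGs were the 3 with the smallest larger p of the Fisher tests in each direction, the 3 with the smallest p of the interaction and of the total, the 3 highest, deepest and most surrounded, and those nearest the limits. The members, lists and tests were chosen with earlier results of these data known. Alternatives covered the limits of the rule, depth, level filters, thresholds and, for the interaction, a z test. The first z test used unpooled variances. After its count was seen, a form with 1 methylated and 1 unmethylated read added to each allele was run too, and both are reported.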

Additional observations from a re-analysis of the deposited data

Results flagged for a closer look

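At 5 solitary CpGs the difference between V and G changed between F1VG and F1GV past the threshold of the likelihood ratio test, which is 5.62% of them and near the 4.73% of all tested CpGs. The adjusted p was 0.000146 at SCAFFOLD27 position 486782, 0.00168 at SCAFFOLD47 position 881915, 0.00255 at SCAFFOLD14 position 1404474, 0.0104 at SCAFFOLD38 position 1288176 and 0.0301 at SCAFFOLD10 position 2753454. Zelen's exact test, added after these values were seen, gave unadjusted p of 1.66e-05, 6.79e-05, 0.000245, 0.00203 and 0.00835, respectively. Each cross is 1 library, so the crosses cannot be told apart from the libraries.

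CpGs listed in only 1 of the files also held solitary sites by the same limits applied to that file's own levels. There were 7 among the 273310 CpGs listed only in F1VG, with a median level of 83.9% over a median of 53 reads, and 22 among the 995756 listed only in F1GV, with a median of 66.2% over 39.5 reads. No second library gave a level at these sites, and they were not among the 89.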

How the results depend on the processing

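The number of solitary CpGs was 89. It was 34 with a level of at least 80%, 27 and 147 with neighbors below 5% and 20%, 169 and 41 with windows of 500 and 2000 bp, 37 with at least 20 neighbors, 26 with neighbors listed in either file, 38 with the limits met in each file and 23 with at least 16 reads per allele. Chosen after seeing the data, it was 22 with at least 5 neighbors on each side, 24 with a listed CpG within 100 bp, and 4 with one on each side. Calls of V against G numbered 7 in F1VG and 12 in F1GV. Without the level filter they numbered 3 and 7 (3.37% and 7.87%), there above the backgrounds of 0.0885% and 0.123% rather than below. Most CpGs behind those backgrounds had a pooled total below 10%, so the shares are not like with like. Calls numbered 2 and 5 with at least 16 reads per allele, and 0 and 4 at the sites with no listed CpG within 100 bp. The interaction was called at 5, at 1 without the level filter, at 3 with an adjusted p under 0.01, and at 0 of those with no listed CpG within 100 bp. The plain z test called 13 members and 10359 CpGs in all, and the form with added reads, adopted after that count was seen, called 8 and 4986, against 3414 by the likelihood ratio test. The total was called at 13, at 8 with an adjusted p under 0.01, at 2 without the level filter, and at 7 and 6 with and without a listed CpG within 100 bp. No share of all tested CpGs was computed for 16 reads per allele, adjusted p under 0.01 or distance to a listed CpG. The counts of calls by depth and by adjusted p therefore have no background here. The counts by distance can be set beside the other highly methylated CpGs. Of those with no listed CpG within 100 bp, V against G was called at 4.93% in F1VG and 6.04% in F1GV (solitary CpGs 0% and 6.15%). Their interaction was called at 2.44% (solitary 0%) and their total at 3.29% (solitary 9.23%). With a listed CpG within 100 bp the total was called at 5.01% (solitary 29.2%).

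Median allele levels stayed within the counting interval of a single site of median depth in every alternative run. That is a weak check on a median of 89 sites, as the interval for V in F1VG ran from 54.8% to 93.0%. With reads summed over the members, V and G were at 73.0% and 75.5% in F1VG and 72.8% and 71.2% in F1GV. These were below the medians of 77.8%, 82.4%, 79.3% and 76.5%, respectively. Without the level filter, 5 of the named differences between V and G lost their call, with adjusted p of 0.0803 (SCAFFOLD7 position 2095165, F1GV), 1 (SCAFFOLD135 position 280374, F1VG), 0.117 (SCAFFOLD27 position 486782, F1VG), 0.293 (SCAFFOLD47 position 881915, F1VG) and 0.087 (SCAFFOLD14 position 1404474, F1GV). No paired analysis was possible because each cross had 1 library, and no replicate could be left out. The median allele had 15 reads in F1VG.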
